A study of Mus musculus with 22 samples.

Results

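Complexes III, IV and V of the mitochondrial respiratory chain were examined at the level of their nuclear-encoded subunit RNAs in the epididymal fat pad, a white fat depot of the mouse abdomen. Genes were chosen by their name on the array, as those beginning with Uqcr, Cox4, Cox5, Cox6, Cox7, Cox8 or Atp5, together with Cyc1 and Cycs, with Cox4i2 left out. They also needed a Cy5 signal well above background on at least 10 of 22 arrays. Of 45 genes so named, 43 met this criterion, of 16602 genes tested in all. Among the genes so named, they comprised all 9 complex III genes, the electron carrier Cycs, 14 of 16 complex IV genes and all 15 complex V genes. Subunit genes with other names, among them Ndufa4, Usmg5 and 2010107E04Rik, are not counted among the 43. Another 4 genes carried a matching name and are not subunits of these complexes: Cox7a2l, Cox4nb, Atp5s and Atp5sl. Cox7a2l is known as a factor of supercomplexes of complexes III and IV, and its action in these mice was not examined. Cox4nb, whose current symbol is Emc8, is a part of the endoplasmic reticulum membrane complex. Atp5s and Atp5sl have the current symbols Dmac2l and Dmac2. The 2 genes below the criterion were Cox7b2, above background on at most 1 array, and Cox8c, on at most 5 arrays. Just inside it lay Cox6a2 and Atp5s, on 12 arrays each.

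Complex III takes electrons from ubiquinol and passes them to cytochrome c, a small soluble carrier that hands them to complex IV, where oxygen is reduced to water. Complexes III and IV pump protons as they do so, and complex V lets the protons flow back to make ATP. The complexes mix subunits encoded in the nucleus with a few encoded in mitochondrial DNA, and several complex IV positions exist as paired isoforms, a widespread form and a form known from muscle, brown fat or testis. White adipocytes hold few mitochondria compared with brown adipocytes.

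All mice were males of the inbred strain C57BL/6JOlaHsd that arrived aged 10 weeks, ate purified feed with 10% of its energy as fat during 3 weeks and with 40% as fat during the next 6 weeks, and were fasted before the test. The hypoxia group (10 mice) breathed 12% oxygen and the normoxia group (12 mice) 20.9% oxygen, for 6 hours in an indirect calorimetry system. The treatment label also mentions low-fat feeding without naming mice. Cy5-labelled RNA from single mice shared each array with a pool of all samples labelled with Cy3, without dye swap, so that every value here is a log2 ratio of the mouse to the pool and differences are hypoxia minus normoxia on that scale. The question was how the fat pad responds to a short drop in ambient oxygen. The tissue is a mixture of cells, so fewer cells of a type and less RNA per cell cannot be told apart.

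The arrays lay on 6 slides, and slides 1, 3, 4, 5 and 6 each held 2 hypoxia and 2 normoxia arrays, while slide 2 held normoxia replicates 9 and 10. Slide 1 was the dimmest: Cy5 was well above background for 15.6% to 18.9% of spots on its 4 arrays, against 29.8% to 76.8% on the others. All 10 adipocyte markers were above background on all 22 arrays. Of the 8 skeletal muscle markers Acta1 was above background on 22 arrays, Tnnt3 on 5, Myh2 and Myh4 on 2 each, and Ckm, Myh1, Mylpf and Mb on 0. Of the 6 brown or beige fat markers Cidea was above background on 22 arrays, Ppargc1a on 18, Cpt1b on 6, Ucp1 on 3, Dio2 on 2 and Elovl3 on 0. Among red blood cell markers Hba-a1 differed by 0.60 ± 0.17 (SE, unadjusted p = 0.00142, adjusted p = 0.501 in limma). The other red blood cell markers tested, Hbb-b2 and Alas2, differed by 0.43 and 0.35 (unadjusted p = 0.0157 and 0.0359, adjusted p = 0.829 and 0.9 in limma). The smooth muscle genes Acta2 and Tagln and the endothelial gene Kdr differed by 0.34, 0.47 and 0.23, each with an adjusted p of 0.508 or above in limma. The other endothelial markers Pecam1, Cdh5, Tek and Emcn differed by 0.02, 0.11, -0.05 and 0.13 (SE 0.09, 0.17, 0.09 and 0.08). The SE of Kdr was 0.07, and the markers were not tested against each other. The smooth muscle gene Myh11 differed by 0.20. The part of these cells in the results was not tested.

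No subunit gene of complexes III to V passed the test between hypoxia and normoxia. In limma with Benjamini-Hochberg adjustment over all genes, 0 of the 43 genes had an adjusted p under 0.05, against 0% of all genes, and the smallest adjusted p among them was 0.944. At an unadjusted p under 0.05 the count was again 0 of 43, against 5.3% of all genes (880 genes: 2.57% higher and 2.73% lower in hypoxia). The values of both groups overlapped for every one of the 43 genes, and 0% of all genes had groups that did not overlap. A difference above 0 was seen for 16 of the 43 genes, against 50.4% of all genes.

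The intervals show how large a change would have been left unseen in the log2 ratios as processed here. The 95% limma intervals of the 43 differences lay between -0.63 and 0.43 on the log2 scale, or 0.65-fold to 1.35-fold. For 42 of the 43 genes the whole interval lay within a change of 1.5-fold in either direction, the exception being Cox8b. This bound belongs to the main processing, and intervals were not computed under others. With the Feature Extraction ratio, for example, Cox6b2 differed by -0.31 (unadjusted p = 0.161 in limma), against -0.11 here. The differences themselves ran from -0.25 (Cox8b) to 0.13 (Atp5e).

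**Figure D1:**
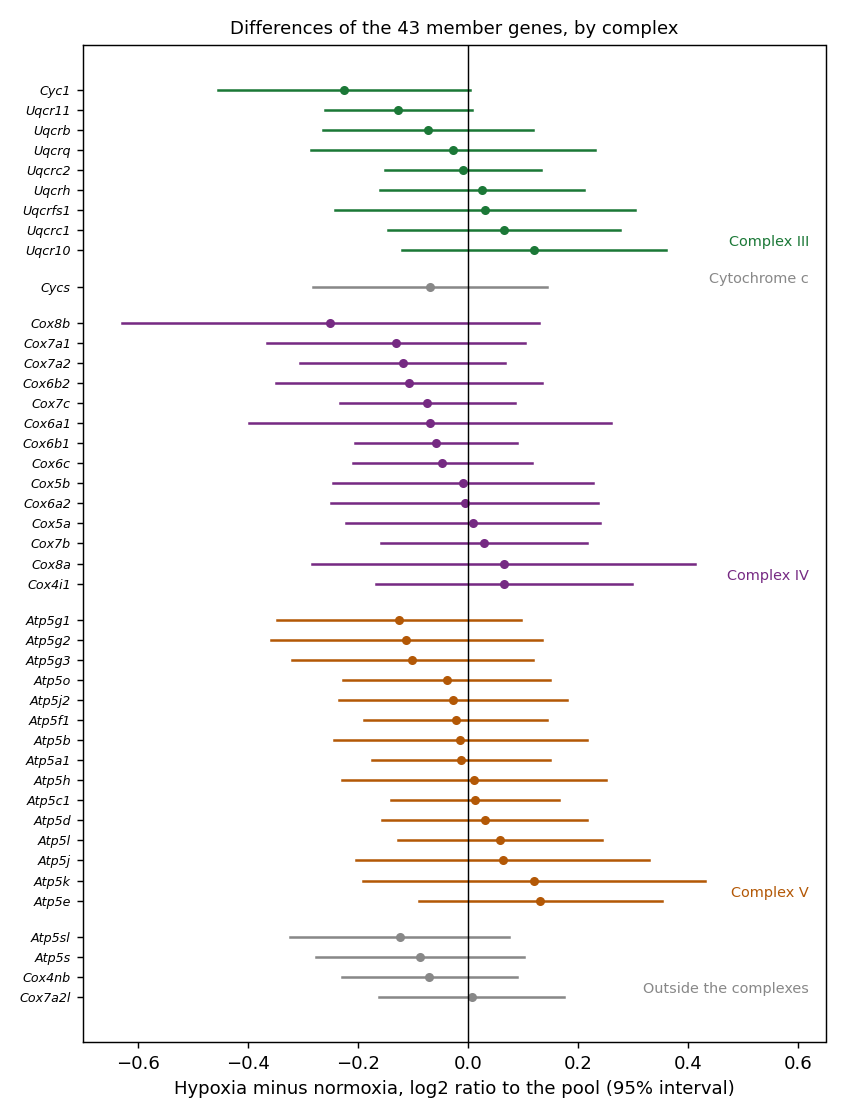
Difference between hypoxia (10 mice) and normoxia (12 mice) for each of the 43 genes, in log2 ratio to the pool on the horizontal axis, with points for the limma estimate and lines for its 95% interval, grouped by complex. Every line crosses 0; the lowest bound is -0.63 (Cox8b) and the highest 0.43.

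Complexes III and V had differences on both sides of 0 in nearly equal number, and complex IV had more below 0 than above. The median difference was -0.01 for the 9 complex III genes (4 above and 5 below 0), -0.05 for the 14 complex IV genes (4 above and 10 below 0) and -0.01 for the 15 complex V genes (7 above and 8 below 0), beside 0.00 for all genes tested. The share above 0 was 44.4% in complex III, 28.6% in complex IV and 46.7% in complex V, against 50.4% of all genes. The complex IV median ran from -0.07 to -0.02 with each mouse left out, and it was 0.01 without normoxia replicates 1 and 3, the mice at the top for Cox8b. In each array the mean of the centred log2 ratios over the genes of a complex was taken as a level of that complex. For complex III this level ran from -0.12 to 0.10 in hypoxia mice (median -0.02) and from -0.11 to 0.14 in normoxia mice (median 0.00). For complex IV it ran from -0.17 to 0.15 in hypoxia mice (median -0.04) and from -0.13 to 0.35 in normoxia mice (median -0.03). For complex V it ran from -0.10 to 0.11 in hypoxia mice (median -0.02) and from -0.16 to 0.20 in normoxia mice (median 0.01). The groups covered each other for all 3 complexes, and the 2 highest complex IV levels both belonged to normoxia mice, replicate 1 on slide 6 (0.35) and replicate 3 on slide 1 (0.34). Within the 5 slides that held both groups, the difference in complex IV level was -0.10, 0.02, -0.01, 0.00 and -0.23 on slides 1, 3, 4, 5 and 6, the last of these being the slide of normoxia replicate 1.

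**Figure D2:**
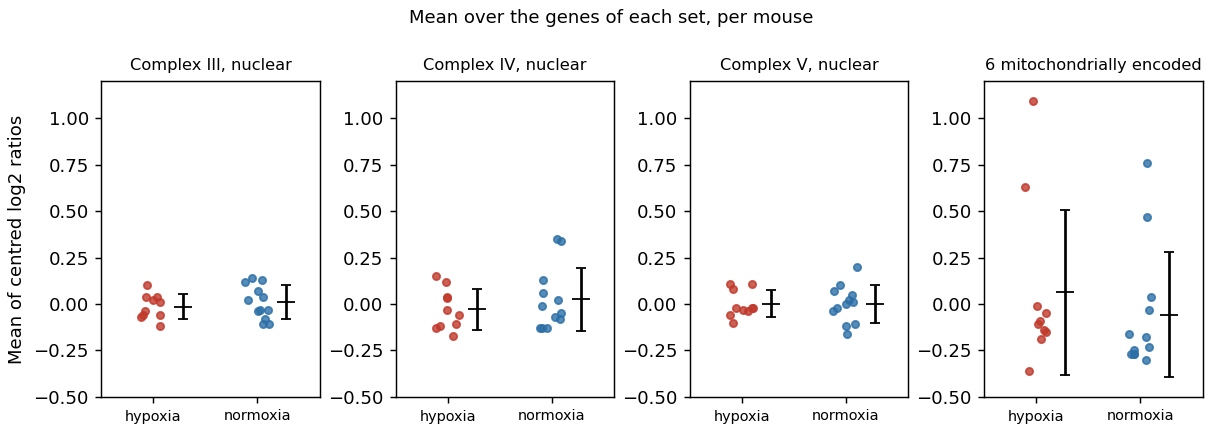
Mean of centred log2 ratios per mouse (vertical axis) for the nuclear subunits of complexes III, IV and V and for the 6 mitochondrially encoded subunits, with hypoxia left of normoxia; points are mice and bars the mean with SD (n = 10 and 12). The groups overlap in every panel, and the widest spread is in the mitochondrially encoded genes.

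In complex III the lowest unadjusted p values belonged to Cyc1 and Uqcr11. Cyc1 encodes cytochrome c1, the haem subunit that delivers electrons to cytochrome c, and its probe lies at chr15:76175938-76175997 (mm9, plus strand, as the files place it). Its log2 ratio had a lowest, median and highest value of -0.92, -0.49 and -0.29 in hypoxia mice, against -0.63, -0.39 and 0.31 in normoxia mice. The groups overlapped, with 9 of 10 hypoxia mice below the normoxia mean and 3 of them (replicates 2, 5 and 7) below the lowest normoxia mouse. The means were -0.53 ± 0.22 in hypoxia and -0.30 ± 0.31 in normoxia (SD, n = 10 and 12), a difference of -0.23 ± 0.11 (SE, 0.855-fold, 95% interval -0.46 to 0.00, unadjusted p = 0.0534, adjusted p = 0.944 in limma). Within the 5 slides the difference ran from -0.58 to -0.01, and with slide as a block it was -0.18 (unadjusted p = 0.121). The unadjusted p of Cyc1 moved to either side of 0.05 with single mice left out, the lowest being 0.0313 without normoxia replicate 4.

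Uqcr11, a small supernumerary subunit (probe at chr10:79865745-79865804, mm9, minus strand), had a lowest, median and highest log2 ratio of -0.23, -0.06 and 0.09 in hypoxia mice, against -0.18, 0.04 and 0.28 in normoxia mice. It was among the least variable of the 43 genes, with a pooled SD of 0.119. Its difference was -0.13 ± 0.07 (SE, unadjusted p = 0.0622, adjusted p = 0.95 in limma) and ran from -0.30 to -0.08 within the 5 slides. A second Uqcr11 probe that overlaps the first gave 0.02 ± 0.08 (SE), and the mean of both probes gave -0.05.

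Uqcr10, another small subunit, had a lowest, median and highest log2 ratio of -0.54, 0.32 and 0.62 in hypoxia mice, against -0.32, 0.12 and 0.51 in normoxia mice. The ranges covered each other, and the difference of 0.12 ± 0.12 (SE, adjusted p = 0.982 in limma) was the highest in complex III. Its other probes gave 0.09 and -0.06. Uqcrfs1, the Rieske iron-sulphur protein that takes the electron from ubiquinol, spread from -0.45 to 0.46 (median 0.03) in hypoxia mice and from -0.78 to 0.36 (median 0.00) in normoxia mice, with a difference of 0.03. The core proteins Uqcrc1 and Uqcrc2 differed by 0.06 and -0.01. The remaining small subunits Uqcrb, Uqcrh and Uqcrq differed by -0.07, 0.03 and -0.03.

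Cycs, cytochrome c itself, had a lowest, median and highest log2 ratio of -0.31, 0.28 and 0.40 in hypoxia mice, against -0.16, 0.22 and 0.69 in normoxia mice. The means were 0.16 ± 0.26 in hypoxia and 0.23 ± 0.23 in normoxia (SD), with a difference of -0.07 ± 0.10 (SE, adjusted p = 0.993 in limma). A second Cycs probe gave -0.08.

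In complex IV the 3 lowest unadjusted p values belonged to Cox8b, Cox7a2 and Cox7a1, and 2 of these, Cox8b and Cox7a1, are the isoforms known from muscle and brown fat. Cox8b (probe at chr7:148084852-148084911, mm9, minus strand) had a lowest, median and highest log2 ratio of -1.08, -0.67 and 0.00 in hypoxia mice, against -0.86, -0.55 and 0.88 in normoxia mice. Normoxia replicates 1 and 3 stood far above all other mice, at 0.88 and 0.75, and no other mouse was above 0.00. The difference was -0.25 ± 0.18 (SE, unadjusted p = 0.186, adjusted p = 0.981 in limma), and it was -0.14 without normoxia replicate 1, -0.15 without replicate 3 and -0.02 without both, an alternative added after seeing the data.

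The mice at the top for Cox8b differed in which other genes were high. In normoxia replicate 1 Cox6a2, the muscle-type partner of Cox6a1, was at 0.83, the highest of all 22 mice, and Cox6b2, the isoform known from testis, was at 0.62, also the highest. That mouse also had the highest Smcp (3.18), Prm1 (2.77) and Prm2 (2.77), genes of sperm cells. The sperm gene Tnp1 was at 0.40 there and highest in normoxia replicate 5 (0.53). Other mice had high Smcp without high Cox8b: in normoxia replicates 6 and 5 and hypoxia replicate 10 Smcp was at 1.77, 1.53 and 1.13, and Cox8b at -0.86, -0.57 and -1.08. In normoxia replicate 1 Cox7a1 was at 0.07 and Cidea, a lipid droplet protein of brown and beige adipocytes, at -0.17. In normoxia replicate 3 Cox7a1 was at 0.80 and Cidea at 1.20, each the highest of all mice, while Cox6a2 was at 0.11, Cox6b2 at 0.07 and Smcp at -0.68. Adipoq, a hormone of adipocytes in general, was also highest in that mouse (1.67), and it was at 1.31 and 1.25 in the hypoxia mice and 0.55 in the other normoxia mouse of slide 1. Smcp lay between -2.60 and 1.77 in the remaining normoxia mice and Cidea between -0.31 and 0.50. Of the 6 sperm markers 4 passed the brightness criterion, and their mean level ran from -1.30 to 1.69 in hypoxia mice and from -1.60 to 3.26 in normoxia mice. Of the 6 brown or beige markers 2 passed, Cidea and Ppargc1a. Their mean level ran from -0.72 to 0.26 in hypoxia mice and from -0.25 to 0.59 in normoxia mice. With no normoxia mouse above 0.59 for both together, the Cidea value of 1.20 was not matched by Ppargc1a. The part of these cell types in the isoform levels was not tested.

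**Figure D3:**
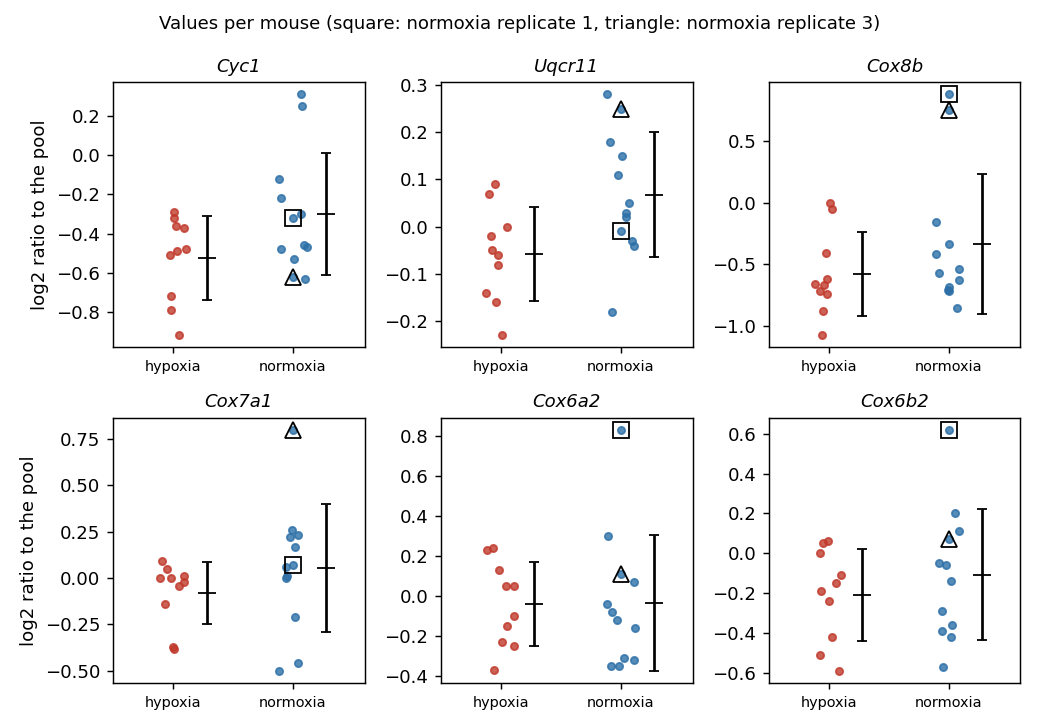
Log2 ratio to the pool per mouse (vertical axes differ) for Cyc1, Uqcr11, Cox8b, Cox7a1, Cox6a2 and Cox6b2, with hypoxia left of normoxia, mean and SD beside the points, a square around normoxia replicate 1 and a triangle around normoxia replicate 3. Replicate 1 is highest for Cox8b (0.88), Cox6a2 (0.83) and Cox6b2 (0.62), and replicate 3 for Cox7a1 (0.80).

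Cox7a1 (probe from 30970337 to 30970948 on chromosome 7 of mm9, plus strand) had a lowest, median and highest log2 ratio of -0.38, -0.01 and 0.09 in hypoxia mice, against -0.50, 0.06 and 0.80 in normoxia mice, and 9 of 10 hypoxia mice were below the normoxia mean. Its difference was -0.13 ± 0.11 (SE) with normoxia replicate 3 and -0.06 without that mouse. The widespread partner Cox7a2 (probe at chr9:79603215-79603274, mm9, minus strand) had -0.37, -0.04 and 0.47 in hypoxia mice, against -0.12, 0.12 and 0.42 in normoxia mice, and a difference of -0.12 ± 0.09 (SE, adjusted p = 0.981 in limma). The isoforms were close in their differences and unlike in which mice were high, since Cox7a2 peaked in hypoxia replicate 4.

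Among the other paired isoforms Cox8a, the widespread partner of Cox8b, had a lowest, median and highest log2 ratio of 0.16, 0.27 and 1.52 in hypoxia mice, against 0.04, 0.27 and 1.26 in normoxia mice, with a difference of 0.06. Cox6a1 had -0.26, 0.02 and 0.98 in hypoxia mice, against -0.44, 0.11 and 1.10 in normoxia mice, with a difference of -0.07. For both genes the 4 highest values were the 4 arrays of slide 1. Cox6a2, above background on 12 arrays, had -0.37, -0.03 and 0.24 in hypoxia mice, against -0.35, -0.10 and 0.83 in normoxia mice, with a difference of -0.01. Cox6b2 had -0.59, -0.17 and 0.06 in hypoxia mice, against -0.57, -0.10 and 0.62 in normoxia mice, with a difference of -0.11 that was -0.04 without normoxia replicate 1. Its widespread partner Cox6b1 had -0.61, -0.34 and -0.22 in hypoxia mice, against -0.50, -0.39 and -0.11 in normoxia mice, with a difference of -0.06.

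Cox4i1, the main form of a regulatory subunit of complex IV, had a lowest, median and highest log2 ratio of -0.64, -0.21 and 0.49 in hypoxia mice, against -0.65, -0.25 and 0.19 in normoxia mice, where 1 array was dropped for a spot flag and n was 11. Its difference was 0.07 ± 0.11 (SE, adjusted p = 0.993 in limma). Cox4i2, the form known to replace it at low oxygen in cultured cells, is not counted among the 43 genes, and had -0.31, -0.13 and 0.26 in hypoxia mice, against -0.40, -0.20 and 0.21 in normoxia mice. Its difference was 0.07 ± 0.08 (SE, unadjusted p = 0.382, adjusted p = 0.986 in limma). Cox7a2l, known from supercomplexes, had a range from -0.47 to 0.05 (median -0.17) in hypoxia mice and from -0.50 to 0.15 (median -0.18) in normoxia mice, with a difference of 0.01.

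A switch between isoforms would move a within-array difference between partners, and 6 such differences were tested over mice with a two-sided permutation test of 100000 resamples and adjustment over the 6 pairs. None passed: the unadjusted permutation p values ran from 0.243 to 0.942 and the adjusted ones from 0.884 to 0.942. For Cox8b minus Cox8a the mean was -1.07 ± 0.60 in hypoxia and -0.75 ± 0.62 in normoxia (SD), a difference of -0.32 (unadjusted permutation p = 0.243), and it was -0.15 without slide 1 and -0.13 without normoxia replicates 1 and 3. For Cox7a2l minus Cox7a2, a pair of related genes in which Cox7a2l is not counted as a subunit, the difference was 0.13 (unadjusted permutation p = 0.295). For Cox4i2 minus Cox4i1 the mean was 0.10 ± 0.28 in hypoxia (n = 10) and 0.07 ± 0.36 in normoxia (n = 11), a difference of 0.03 (unadjusted permutation p = 0.858). That estimate depended on the processing, being 0.37 with the Feature Extraction ratio (unadjusted permutation p = 0.16), and Cox4i2 was above background on 18 arrays. The differences were 0.06 for Cox6a2 minus Cox6a1, -0.05 for Cox6b2 minus Cox6b1 and -0.01 for Cox7a1 minus Cox7a2. With the Feature Extraction ratio Cox6b2 minus Cox6b1 was -0.28 (unadjusted permutation p = 0.236). Probes differ in affinity, so these are shifts of a pair between groups and not relative amounts of the isoforms.

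The start regions of the pairs that hold Cox8b and Cox7a1, the isoforms known from muscle and brown fat with the lowest p values in complex IV, are printed to show how their partners compare upstream of the gene. Each is the 150 bases before the annotated start, from RefSeq on build GRCm38.p6, read 5′ to 3′ on the strand of the gene, with CG dinucleotides in capitals. Cox8b lies at chr7:140900447-140900596 (minus), Cox8a at chr19:7217617-7217766 (minus), Cox7a1 at chr7:30184021-30184170 (plus) and Cox7a2 at chr9:79759854-79760003 (minus).
Cox8b: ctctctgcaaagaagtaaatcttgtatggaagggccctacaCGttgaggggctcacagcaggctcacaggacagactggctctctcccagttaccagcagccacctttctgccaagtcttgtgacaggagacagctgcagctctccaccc
Cox8a: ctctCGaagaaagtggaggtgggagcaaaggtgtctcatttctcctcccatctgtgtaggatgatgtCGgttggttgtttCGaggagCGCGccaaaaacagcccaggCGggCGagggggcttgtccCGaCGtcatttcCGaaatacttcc
Cox7a1: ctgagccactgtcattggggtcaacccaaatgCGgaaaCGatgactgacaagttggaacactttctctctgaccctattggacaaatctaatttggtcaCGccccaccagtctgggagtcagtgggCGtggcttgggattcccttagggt
Cox7a2: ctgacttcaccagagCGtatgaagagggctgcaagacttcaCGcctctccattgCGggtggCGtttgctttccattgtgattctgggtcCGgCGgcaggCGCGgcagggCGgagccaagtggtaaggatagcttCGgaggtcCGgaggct
The muscle-type Cox8b and Cox7a1 hold 1 and 4 CG dinucleotides in this stretch, against 10 and 11 in the widespread Cox8a and Cox7a2, with a GC content of 55.3% and 52% against 55.3% and 60.7%. These are features of the reference and say nothing of what drove the values of single mice.

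Windows of 300 bases around the start were found for 31 of the 39 genes that encode subunits or cytochrome c (34 windows). They were searched on both strands for 3 motifs of 7 letters, GCGCATG as in sites of NRF1, CCGGAAG as in sites of the ETS family to which GABP belongs, and ATGGCGG as in sites of YY1, all regulators of respiratory genes. The NRF1 letters occurred in 8 windows (23.5%, against 3.91% of all 32851 windows in the table), the ETS letters in 10 (29.4%, against 8.86%) and the YY1 letters in 2 (5.88%, against 4.05%). The last letters of the NRF1 motif, ATG, are the first of the YY1 motif, so that these can overlap. The windows of Cox8b, Cox7a1, Cox7a2 and Cox6b2 held none of the motifs, as did most of the 34 windows, among them those of Uqcr10, Cox5a and Atp5g1. The window of Cox8a held the ETS letters in 2 places outside the printed stretch. The 34 windows had a median of 18.5 CG dinucleotides, against 7 in all windows of the table. A match is a run of letters, not a bound site.

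Among the remaining complex IV subunits, Cox5a and Cox5b form the matrix side of the enzyme next to Cox4i1. Cox5a had a lowest, median and highest log2 ratio of -0.43, 0.20 and 0.44 in hypoxia mice, against -0.28, 0.10 and 0.69 in normoxia mice, and Cox5b had -0.66, 0.26 and 0.59 in hypoxia mice, against -0.17, 0.28 and 0.58 in normoxia mice. Both differed by 0.01 or less in size, and the groups covered each other. Cox6c, Cox7b and Cox7c differed by -0.05, 0.03 and -0.07.

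In complex V the lowest unadjusted p values belonged to Atp5e, Atp5g1 and Atp5g3, and none was below 0.235. Atp5e, a small subunit of the central stalk, had a lowest, median and highest log2 ratio of -0.47, 0.09 and 0.73 in hypoxia mice, against -0.39, 0.03 and 0.29 in normoxia mice. The 3 highest values of all mice were in hypoxia, and so was the lowest, and the difference was 0.13 ± 0.11 (SE, adjusted p = 0.981 in limma). The 3 genes Atp5g1, Atp5g2 and Atp5g3 encode the same proton-carrying ring subunit and differed by -0.13, -0.11 and -0.10, each with an adjusted p of 0.981 or above in limma. Atp5g1 had -0.73, -0.29 and 0.14 in hypoxia mice, against -0.69, -0.18 and 0.28 in normoxia mice, with 9 of 10 hypoxia mice below the normoxia mean. Atp5g3 had means of 0.50 ± 0.18 in hypoxia and 0.60 ± 0.30 in normoxia (SD), and medians of 0.54 in hypoxia mice and 0.56 in normoxia mice. For Atp5g2 the difference was below 0 within each of the 5 slides (-0.17 to -0.05), and with slide as a block it was -0.12 (unadjusted p = 0.215).

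The catalytic head of complex V is built from Atp5a1 and Atp5b. Atp5a1 had a lowest, median and highest log2 ratio of -0.41, -0.13 and 0.15 in hypoxia mice, against -0.50, -0.03 and 0.06 in normoxia mice, and Atp5b had 0.03, 0.35 and 0.90 in hypoxia mice, against 0.13, 0.30 and 0.87 in normoxia mice. Both differed by -0.01. The stalk subunits Atp5c1, Atp5d, Atp5f1, Atp5h, Atp5j and Atp5o differed by 0.01, 0.03, -0.02, 0.01, 0.06 and -0.04, and the membrane subunits Atp5j2, Atp5k and Atp5l by -0.03, 0.12 and 0.06. Atp5k is uncertain, since its probe on chromosome 5 gave 0.12 ± 0.15 (SE), with normoxia replicate 7 at -1.38. The 2 probes of that name placed on chromosome Y gave -0.11 ± 0.10 and -0.13 ± 0.06 (SE). The latter had an unadjusted p of 0.032 (adjusted p = 0.903 over probes in limma). Neither of these probes stood for the gene in the counts. One of the Cox5b probes is likewise placed away from the gene, on chromosome 15, and gave -0.05. Genes with close copies such as these may share signal between probes.

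Several probes were tested for 18 of the 43 genes, and they show how closely a value of the same gene repeats. In 8 of these 18 genes the probes differed in the sign of their hypoxia difference. After removing group means, the correlation between 2 probes of a gene over the 22 arrays had a median of 0.31 over 40 pairs of probes, with a range from -0.35 (Atp5l) to 0.89 (Cox8a). The Cox5b probes correlated at 0.88. Probe pairs share the array and the slide, so the high values include what moves with the slide.

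The spread between mice was near that of other genes, with a median pooled SD of 0.248 for the 43 genes, against 0.23 for all genes. Uqcr11 (0.119) had the lowest and Cox8b (0.48) the highest. The slide accounted for much of the spread of a few genes. On the 4 arrays of slide 1, Cox8a lay between 1.08 and 1.52, above its highest value on any other slide (0.53), and so did Cox6a1 (0.66 to 1.10, against at most 0.48), Atp5b (0.81 to 0.90, against at most 0.72), Uqcrq (0.60 to 1.01, against at most 0.53) and Cox4i1 (-0.04 to 0.49, against at most -0.06). With slide in the model the residual SD of Cox8a was 0.134, against 0.438 without it. In all, 5 of the 43 genes (11.6%) had slide 1 apart from every other array, against 1.89% of all genes and 6.82% of the 4151 brightest genes, to which 36 of the 43 belong. Slide 1 carries both groups equally, and without it the differences of Cox8a, Cox6a1 and Atp5b were -0.02, -0.08 and -0.04.

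**Figure D4:**
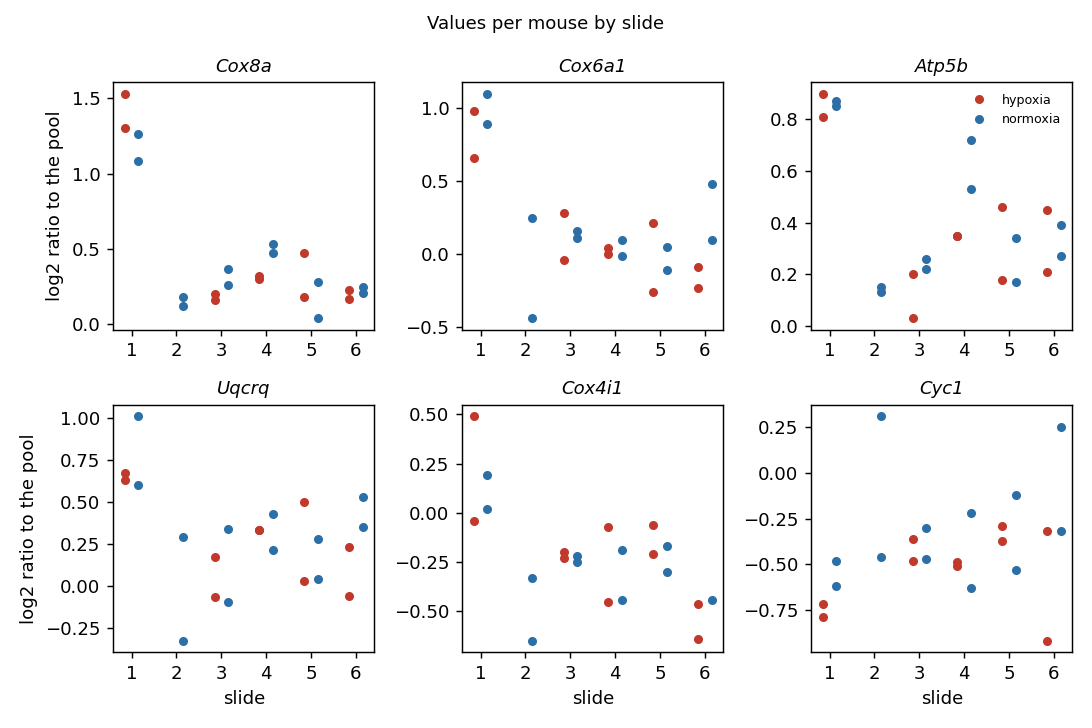
Log2 ratio to the pool per mouse (vertical axes differ) against slide for Cox8a, Cox6a1, Atp5b, Uqcrq, Cox4i1 and Cyc1, with hypoxia drawn left of normoxia on each slide. On slide 1 Cox8a lies at 1.08 to 1.52 in both groups and at 0.53 or below elsewhere, while Cyc1 does not show this step.

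Subunits varied together from mouse to mouse in some pairs and not in most. After removing group means, the median correlation between genes was 0.04 within complex III (36 pairs), 0.18 within complex IV (91 pairs) and 0.05 within complex V (105 pairs), beside 0.02 for genes sampled from the whole table. A correlation above 0.5 was found in 8.33% of pairs within complex III, 17.6% within complex IV and 11.4% within complex V, against 12.2% within complex I and 5.23% of pairs of the sampled genes. Among all 43 genes it was found in 99 of 903 pairs, and in 105 with slide means removed. A correlation below -0.5 was found in 50 of the 903 pairs. As a description over 22 mice that share the arrays and slides, the strongest pair was Cox8a with Atp5b (r = 0.89), which was 0.43 with slide means removed. Others were as strong with slide means removed: Uqcr10 with Atp5e (0.84, then 0.92), Uqcrq with Cox6a1 (0.86, then 0.83), and Cox7a2 with Atp5e in the opposite direction (-0.88, then -0.87). Hypoxia replicate 4 held the lowest Uqcr10 (-0.54), Cox5b (-0.66) and Atp5e (-0.47) and the highest Cox7a2 (0.47), and hypoxia replicate 7 held the highest Uqcr10, Cox5b and Atp5e and the lowest Cox7a2.

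The 6 mitochondrially encoded subunits of the same complexes are named COX1, COX2, COX3, CYTB, ATP6 and ATP8 on the array. All had differences above 0, with a median of 0.14, while 50.4% of all genes were above 0. They share arrays and slides, so their signs are not separate observations. The 38 nuclear subunits of complexes III to V that the naming rule covers had 15 differences above 0 in the same fit. None passed: ATP6 differed by 0.22 ± 0.12 (SE, unadjusted p = 0.0781, adjusted p = 0.952 in limma), COX1 by 0.21 ± 0.29, CYTB by 0.18 ± 0.23, COX2 by 0.09 ± 0.19, ATP8 by 0.06 ± 0.12 and COX3 by 0.01 ± 0.14. The mean over the 6 ran from -0.36 to 1.09 in hypoxia mice and from -0.30 to 0.76 in normoxia mice, and the 4 highest means were the 4 arrays of slide 1. There COX1 lay between 1.58 and 2.92, against at most 0.63 on every other array. The CYTB value of hypoxia replicate 10 was dropped for a spot flag.

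Genes that build or regulate the complexes were counted in the same fit, and none had an adjusted p under 0.05. Of 5 measured complex III assembly factors, Uqcc2 had the lowest p (-0.26 ± 0.09 SE, unadjusted p = 0.00752, adjusted p = 0.765 in limma). Of 16 measured complex IV assembly factors, Cox14, which acts early in the synthesis of the mitochondrially encoded core subunit, had the lowest (-0.25 ± 0.09 SE, unadjusted p = 0.00985, adjusted p = 0.816 in limma). Of 11 measured transcription regulators, Esrra, a nuclear receptor that drives respiratory genes, differed by -0.26 ± 0.08 (SE, unadjusted p = 0.0018, adjusted p = 0.508 in limma) and Tfb1m by -0.26 ± 0.12 (SE, unadjusted p = 0.0421). These 4 are all the genes of those lists with an unadjusted p under 0.05, beside 5.3% of all genes. Atpif1, the inhibitor of complex V, differed by -0.09, and Atpaf2 and Tmem70, which assemble it, by -0.13 and -0.09. Lonp1, the protease known to remove Cox4i1 at low oxygen in cultured cells, differed by -0.04, and Higd1a and Ndufa4l2, both known as hypoxia-induced, by 0.09 and 0.01. The 38 complex I subunit genes had a median difference of 0.00 with 19 above and 19 below 0, and the 4 complex II genes a median of -0.02. Ndufa4, Usmg5 and 2010107E04Rik, subunit genes outside the naming rule, differed by 0.12, -0.01 and -0.02, each with an adjusted p of 0.982 or above in limma.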

How the data were processed

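Mean signals and local backgrounds were taken from the deposited scanner files as intensity values. Per the file headers, Agilent Feature Extraction (version 10.7.3.1) wrote them. The deposited log10 ratio (Cy5 to Cy3) carries that program's own dye normalization, per the file headers, and served as an alternative after conversion to log2. The deposited value table holds log2 values with a median of 6.299 on every array. Correlations of its columns were 0.902 to 0.999 with log2 Cy5, 0.896 to 0.987 with log2 Cy3 and 0.053 to 0.338 with the log ratio. The correlation with Cy5 was higher than that with Cy3 on 19 of 22 arrays. The table thus holds levels and not ratios, and the sources used here do not state its channel or scaling.

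Background was corrected with normexp (offset 50) and arrays were normalized by loess in limma 3.58.1 under R 4.3.3. Spots flagged as outliers were left out, and no member probe was saturated in Cy5. A probe was tested with Cy5 well above background on at least 10 arrays. The tested probe with the highest mean intensity stood for its gene, which was named through RefSeq of assembly GRCm38.p6. Groups came from the sample titles, and lmFit and eBayes compared them without covariates, with Benjamini-Hochberg adjustment over all genes. Isoform pairs were compared by permutation. Alternatives were other normalizations, filters, slide blocks, left-out slides and mice, array weights, probe averaging and the deposited table. Precision depends on how many arrays there are, and the members had a median SE of 0.104. The script was tested on simulated data. Every member may be named, and values per mouse are given for the 3 lowest p values of each complex, core subunits and isoform pairs. The members and lists were chosen with earlier results of these data known. Replicates are mice by their labels. Same-numbered mice did not vary together (correlations of deviations -0.47 to 0.25), so replicate numbers were not treated as pairs.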

Additional observations from a re-analysis of the deposited data

Results flagged for a closer look

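In the hypoxia group, 46 sets of values (43 genes and 3 complex levels) were screened for single mice at a distance from the rest by Dixon's criterion, which flags about 1 in 20 groups by chance, or 2.3 here. It picked out 4 genes. Uqcr10 was at -0.54 in replicate 4, with the others between 0.02 and 0.62, and Cox5b was at -0.66 in the same mouse, with the others between 0.00 and 0.59. Cox4i1 was at 0.49 in replicate 7, on the dim slide 1, with the others between -0.64 and -0.04. Cox7b was at -0.63 in replicate 10, with the others between -0.13 and 0.17.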

How the results depend on the processing

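No member gene reached an adjusted p under 0.05 in any of the 1458 differences recomputed (lowest 0.598, with array weights), and no isoform pair did in 183 (lowest 0.442). Over all genes the count with an adjusted p under 0.05 was 1 with the Feature Extraction ratio, 1 among probes above background on all 22 arrays, 2 with slide as a fixed block, 2 without slide 1 and 4 with array weights, and 0 to 3 with each mouse left out in turn, the highest without hypoxia replicate 7. The number of members with an unadjusted p under 0.05 was 1 without a filter on dim probes (Uqcr11) and 1 without slide 2 (Uqcr11), and 0 to 2 with each mouse left out, the genes being Cyc1 or Uqcr11 and the highest count without normoxia replicate 10 or hypoxia replicate 4. With the deposited values, 3 of 43 members were above 0 and the medians were -0.11 for complex III, -0.15 for complex IV and -0.11 for complex V. With them, 36.5% of all genes and 19% of the 4151 brightest were above 0, with a median of -0.04 for all genes, and 0 members had an unadjusted p under 0.05. The cause was not tested. Under the 11 other settings 11 to 18 members were above 0, and medians ran from -0.06 to 0.03 for complex III, -0.07 to -0.05 for complex IV and -0.03 to 0.02 for complex V. With each mouse left out, 11 to 20 members were above 0. Without normoxia replicates 1 and 3, added after seeing the data, 22 members were above 0, the complex IV median was 0.01, and 1 member, Cyc1, had an unadjusted p under 0.05 (-0.26, adjusted p = 0.79 in limma). Aquantile scaling leaves ratios as they are and moved nothing.

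The replicate block, over the numbers both groups share, gave 0 calls among members, medians of 0.03, -0.06 and 0.02 for complexes III, IV and V, and 18 members above 0. The numbers do not pair the mice. The slide as a random block and array weights were not run for the isoform pairs, nor was the stricter filter where it left a partner out.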
